A study of Rattus norvegicus with 15 samples.

Results

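The G1 cyclins, their cyclin-dependent kinases (CDKs) and the CDK inhibitors p21 and p27 were followed in rat retinas after sodium iodate (NaIO3) injury and cell transplantation. The set holds 10 genes, found by symbol among the 20375 genes listed: the D cyclins Ccnd1, Ccnd2 and Ccnd3, the E cyclins Ccne1 and Ccne2, the kinases Cdk2, Cdk4 and Cdk6, and the inhibitors Cdkn1a and Cdkn1b. All 10 passed the filter on low values, together with 15424 genes in all. The rule names the genes and uses no measured value.

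RNA was sequenced from retinas of wild-type Sprague-Dawley rats, 3 libraries in each of 5 groups. The NT group was healthy and received neither NaIO3 nor cells. The Sham group received systemic NaIO3 at 40 mg/kg, which kills the retinal pigment epithelium and then the photoreceptors, with an intravitreal injection of the balanced saline vehicle. The MSC, MSCEPO and DPSC groups received the same dose of NaIO3 and an intravitreal injection of cells, namely human Wharton's jelly mesenchymal stem cells (MSC), the same kind of cells transduced with a lentivirus to express human erythropoietin and sorted for the reporter (MSCEPO), and the cells that the labels call DPSC. The labels give dexamethasone before the surgery and oral cyclosporin after it for the rats with xenografts. They do not say whether Sham rats received these drugs, and if they did not, cells and immunosuppression cannot be told apart. The labels place every collection at day 31 and the age at postnatal week 12. They give another cell density than the methods do, so no number of cells is used here. Nothing in the labels says which libraries share an animal, so the p-values measure only the spread between these libraries.

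In G1, D cyclins bind CDK4 and CDK6 and phosphorylate the retinoblastoma protein, which frees the E2F factors. Cyclin E with CDK2 then completes the step into S phase. The inhibitors p21 (Cdkn1a) and p27 (Cdkn1b) bind these complexes and hold cells back. Cyclin D1 is the main D cyclin of the developing retina, whose neurons then leave the cycle for good, while Müller glia of the adult retina stay quiescent with p27 and can raise D cyclins when injured.

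Expression is given as the regularized log (rlog) that the authors computed, in log2 units, scaled for library size, with noisy values drawn toward the gene's average. A true doubling therefore shows as a difference close to 1, and for low genes as one under 1. The values are not set per length, so levels are compared between groups and never between genes. Depth is unknown from these values. A gene was called when its adjusted p in limma was under 0.05 after Benjamini-Hochberg adjustment over the 15424 genes. Since a whole retina was measured, fewer cells of a type and less RNA per cell cannot be told apart.

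The tissue carried the markers of retina. All 12 rod photoreceptor markers on the list passed the filter on low values. The median rlog value of a library lay between 8.63 and 8.82. Several libraries stood apart from their own group. The root mean square distance of a library to its group mean was 0.477 for MSCEPO 3, 0.377 for MSC 1 and 0.349 for DPSC 2, against 0.128 to 0.167 in the NT and Sham groups. MSC 1 held the highest levels of immune cell markers, and the list of lens and ocular surface markers was highest in DPSC 1, where it lay 4.28 above its NT mean. Members' calls that change when MSC 1, MSCEPO 3 or DPSC 2 is left out are given with and without that library.

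Of the D cyclins, Ccnd1 and Ccnd2 carried the changes in this set. Both were higher than in NT in the MSC and MSCEPO groups, by 1.16 to 2.03 on the log2 scale, and Ccnd1 was also called in DPSC. The third D cyclin, both E cyclins, Cdk2, Cdk4, Cdk6 and both inhibitors were not called in any comparison. No member was called between Sham and NT or between any cell group and Sham.

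Cyclin D1 (Ccnd1, ENSRNOG00000020918) had rlog values of 8.45, 8.82 and 8.04 in NT and of 9.33, 9.99 and 9.80 in Sham. They were 10.46, 10.70 and 10.23 in MSC, 10.69, 10.97 and 9.68 in MSCEPO, and 9.64, 10.76 and 9.50 in DPSC. Every library of the injured retinas lay above all 3 NT libraries, and all 3 MSC libraries lay above all 3 Sham libraries, while MSCEPO 3 and 2 DPSC libraries lay within the Sham range. The means were 8.43 ± 0.39, 9.70 ± 0.34, 10.46 ± 0.24, 10.45 ± 0.67 and 9.97 ± 0.69 in the 5 groups in that order (SD, n = 3). From low to high the order was NT, Sham, DPSC, MSCEPO and MSC, and no pair of neighbours in this order was called.

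Against NT, Ccnd1 was higher by 2.03 (SE 0.37, adjusted p = 0.00372) in MSC, which is 4.08-fold. It was higher by 2.01 (SE 0.37, adjusted p = 0.00441) in MSCEPO, which is 4.03-fold. In DPSC it was higher by 1.53 (SE 0.37, adjusted p = 0.0447), which is 2.89-fold. The Sham group, with a difference of 1.27 (95% confidence interval 0.47 to 2.06), had an adjusted p of 0.146 and was not called. That Ccnd1 passed in the cell groups and not in Sham does not show that they differ. Tested directly against Sham, the differences were 0.76 for MSC (interval -0.03 to 1.56, adjusted p = 0.4), 0.74 for MSCEPO (interval -0.05 to 1.54, adjusted p = 0.623) and 0.26 for DPSC (interval -0.53 to 1.06, adjusted p = 1).

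The calls of Ccnd1 in MSC and MSCEPO held under each of their 16 alternatives, with the highest adjusted p at 0.0221 and 0.0272. The DPSC call was lost in 11 of 15 fits that each left out 1 library, and held without MSC 1, MSCEPO 2, MSCEPO 3 or DPSC 3, with adjusted p-values from 0.0135 to 0.184 over the 15. It was also lost without the filter, with quantile normalization and with the 2 groups alone. Without DPSC 2, the highest of that group, the difference fell to 1.14.

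Cyclin D2 (Ccnd2, ENSRNOG00000057710) was the steadier of the pair in the groups without cells. Its values were 8.60, 8.55 and 8.58 in NT and 9.78, 9.75 and 9.73 in Sham. In MSC they were 10.36, 10.02 and 9.85, in MSCEPO 10.21, 10.20 and 8.78, and in DPSC 9.40, 10.17 and 9.69. Each of the 12 injured retinas lay above NT, and the spread was 0.02 (SD) in NT and Sham but 0.82 in MSCEPO, where replicate 3 lay more than 1 unit under the other two. From low to high the means ran NT (8.57), MSCEPO (9.73), Sham (9.75), DPSC (9.75) and MSC (10.08). Of these neighbours NT and MSCEPO were called apart, as given next, and the other pairs were not.

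Ccnd2 was higher than in NT by 1.50 (SE 0.31, adjusted p = 0.00707) in MSC and by 1.16 (SE 0.31, adjusted p = 0.0317) in MSCEPO. The differences of Sham, 1.18 (adjusted p = 0.114), and of DPSC, 1.18 (adjusted p = 0.0656), were of nearly the same size and were not called. The fit used 1 spread per gene over all 5 groups, so the wide MSCEPO group enlarged the error of every comparison. With the 2 groups compared alone, Ccnd1, Ccnd2 and Cdk6 were called in Sham against NT (8.65% of all genes). Ccnd2 in MSCEPO against NT was not called in that setting (adjusted p = 0.139). It also called Ccnd2 but not Ccnd1 in DPSC (2.58% of all genes) and Cdk6 in MSC (18.1%) against NT. Without MSCEPO 3, Ccnd2 was called in Sham (adjusted p = 0.00513) and in DPSC (adjusted p = 0.00268) against NT, at the same differences. In MSCEPO the difference of Ccnd2 without MSCEPO 3 was 1.63 (adjusted p = 0.000372), and the call was lost when any other library of the MSCEPO and NT groups was left out. Against Sham, Ccnd2 differed by 0.33 in MSC (interval -0.35 to 1.00), by -0.02 in MSCEPO (interval -0.70 to 0.66) and by 0.00 in DPSC (interval -0.67 to 0.68).

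**Figure D1:**
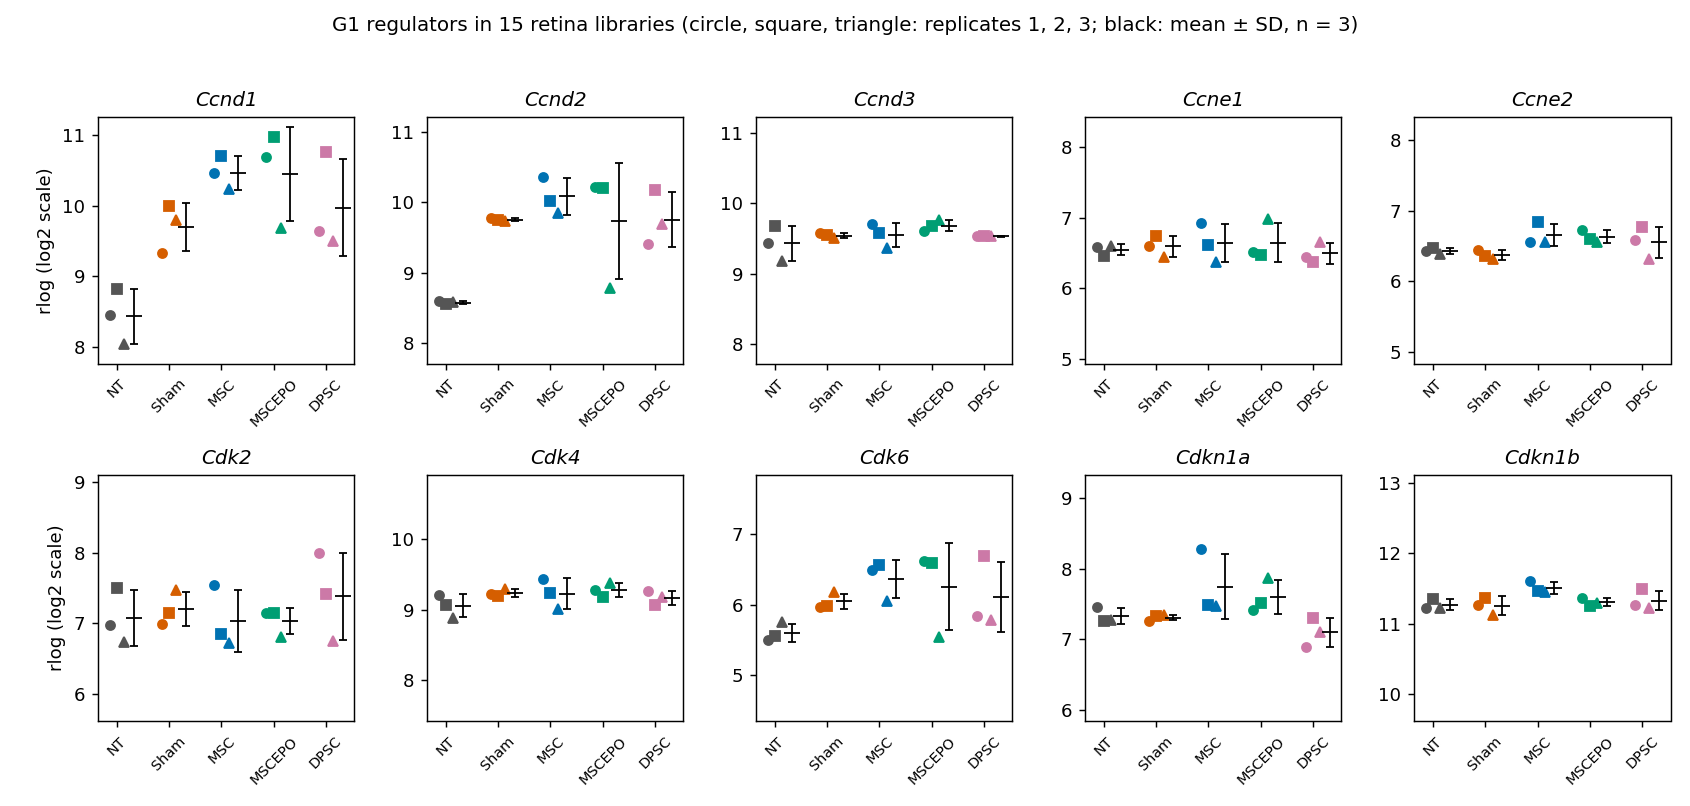
Rlog values (log2 scale, vertical axis) of the 10 G1 genes by group, 1 panel a gene, each axis spanning the same number of log2 units. Circles, squares and triangles are replicates 1, 2 and 3, and the black dash and bar are the mean and SD (n = 3). Ccnd1 rose from 8.43 in NT to 10.46 in MSC, and Ccnd2 of MSCEPO 3 lay at 8.78, next to the NT libraries, while Ccnd3, Ccne1, Ccne2, Cdk4 and Cdkn1b stayed within 0.60 units over the 15 libraries.

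Cyclin D3 (Ccnd3, ENSRNOG00000050258), the remaining D cyclin, ranged from 9.18 in NT 3 to 9.76 in MSCEPO 3. Its group means lay between 9.43 and 9.68. The difference from NT was at most 0.25, in MSCEPO (interval -0.01 to 0.50). This interval overlaps that of Ccnd2 in the same group (0.48 to 1.83) and not that of Ccnd1 (1.22 to 2.81). Genes were not tested against each other.

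The E cyclins moved little. Ccne1 (ENSRNOG00000014786) lay between 6.38 in DPSC 2 and MSC 3 and 6.98 in MSCEPO 3, and its highest value in MSC, 6.93, was again in MSC 1. Ccne2 (ENSRNOG00000008055) was 6.42, 6.47 and 6.39 in NT and 6.44, 6.36 and 6.31 in Sham. It was 6.56, 6.84 and 6.56 in MSC, 6.73, 6.60 and 6.56 in MSCEPO, and 6.58, 6.76 and 6.31 in DPSC. The 6 libraries of the MSC and MSCEPO groups all lay above the 6 of NT and Sham, by a small step. Ccne2 was the member with the lowest unadjusted p in MSCEPO against Sham, where it was higher by 0.26 (SE 0.12, adjusted p = 0.616), and in DPSC against Sham, at 0.18 (SE 0.12, adjusted p = 1).

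Of the kinases, Cdk6 (ENSRNOG00000009258), a partner of the D cyclins, was the one that varied with them. It was 5.50, 5.56 and 5.75 in NT and 5.97, 5.99 and 6.18 in Sham. It reached 6.49, 6.57 and 6.06 in MSC, 6.62, 6.60 and 5.54 in MSCEPO, and 5.84, 6.69 and 5.79 in DPSC. MSCEPO 3 was the lowest injured retina for Cdk6 as for Ccnd2, and DPSC 2 the highest of its group for Ccnd1, Ccnd2 and Cdk6. Cdk6 lay above NT by 0.44 in Sham (adjusted p = 0.615), 0.77 in MSC (adjusted p = 0.0877), 0.65 in MSCEPO (adjusted p = 0.167) and 0.50 in DPSC (adjusted p = 0.42). Without MSCEPO 3, Cdk6 was called in MSC (0.77, adjusted p = 0.0213) and in MSCEPO (1.01, adjusted p = 0.0142) against NT, and without DPSC 2 the DPSC difference was 0.21 (adjusted p = 0.904).

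Cdk4 (ENSRNOG00000025602), the other partner of the D cyclins, kept between 8.89 and 9.44 in all libraries, with group means from 9.06 in NT to 9.28 in MSCEPO. Cdk2 (ENSRNOG00000006469), the partner of cyclin E, had a wider range, from 6.72 in MSC 3 to 7.99 in DPSC 1, but 14.1% of its variance lay between groups, against a median of 34.5% over all genes tested and 76.8% for Ccnd1. Its groups overlapped in every comparison. DPSC 1, highest for Cdk2, was also highest for the lens and ocular surface list, whose part in the Cdk2 level was not tested.

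Of the inhibitors, Cdkn1a (ENSRNOG00000000521), the p53-responsive p21, was 7.46, 7.26 and 7.28 in NT and 7.26, 7.33 and 7.34 in Sham. It was 8.28, 7.49 and 7.47 in MSC, 7.42, 7.51 and 7.87 in MSCEPO, and 6.89, 7.30 and 7.10 in DPSC. NaIO3 with vehicle left it at -0.02 from NT (interval -0.46 to 0.41). All libraries of MSC and MSCEPO lay above all of Sham, and all of DPSC lay under all of MSC and MSCEPO. Cdkn1a had the lowest unadjusted p of the members in DPSC against MSC, at -0.65 (SE 0.20, adjusted p = 0.587), and in DPSC against MSCEPO, at -0.50 (SE 0.20, adjusted p = 0.996). Neither was called, and without MSC 1 the first of these differences was -0.39 (adjusted p = 1).

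Cdkn1b (ENSRNOG00000007249), p27, kept within 0.49 units, from 11.12 in Sham 3 to 11.61 in MSC 1. The MSC libraries, at 11.61, 11.46 and 11.45, lay above NT, above Sham and above MSCEPO with no overlap. Cdkn1b had the lowest unadjusted p of the members in MSC against Sham, where it was higher by 0.25 (SE 0.09, adjusted p = 0.254), and in MSC against MSCEPO, where it was higher by 0.20 (SE 0.09, adjusted p = 0.754). In Sham against NT the difference was -0.01 (interval -0.21 to 0.19), the narrowest interval of the members there.

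**Figure D2:**
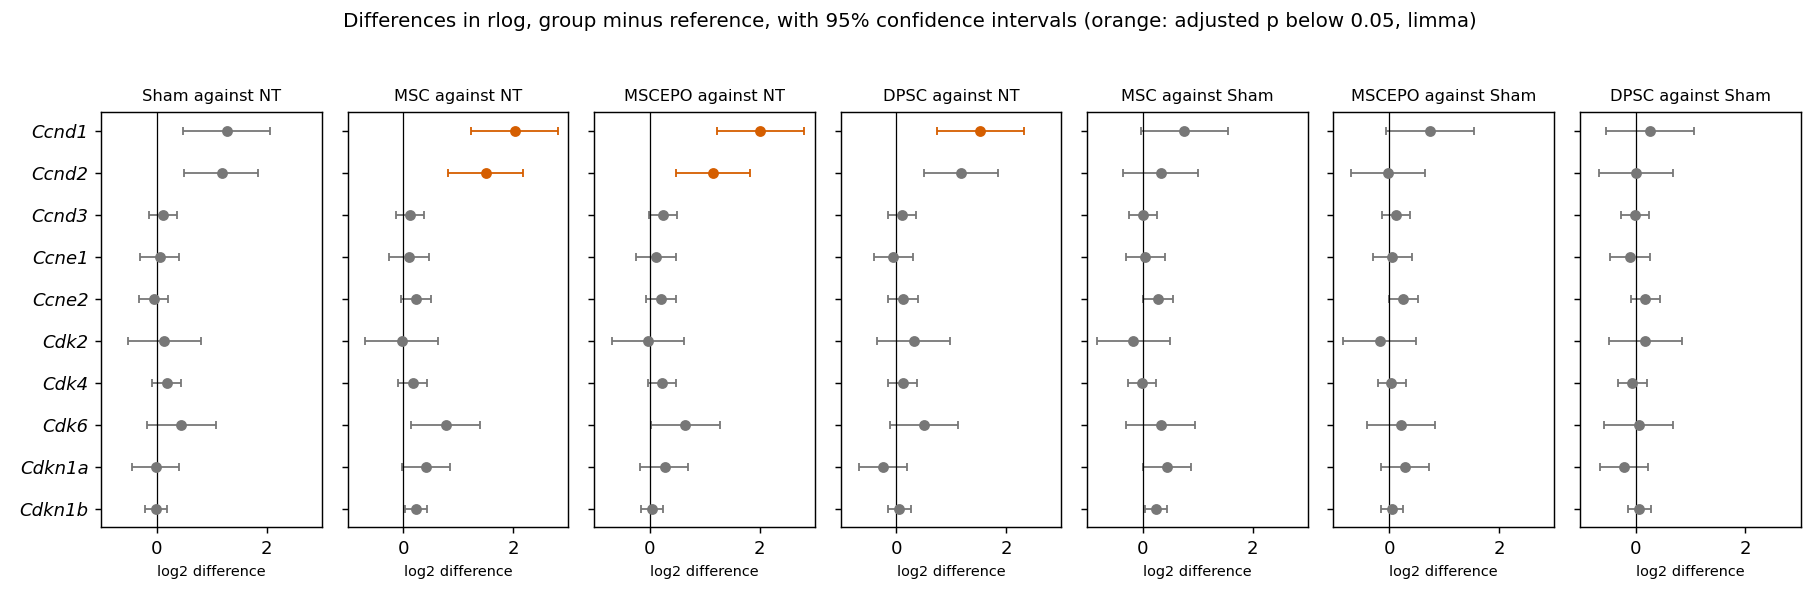
Difference in rlog (horizontal axis, log2, group minus reference) of the 10 genes in 7 comparisons, with 95% confidence intervals from limma over 15 libraries. Orange points were called (adjusted p under 0.05): Ccnd1 and Ccnd2 in MSC and MSCEPO against NT, and Ccnd1 in DPSC against NT; the 3 panels against Sham hold none.

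Counted by comparison, 2 of the 10 members were called in MSC against NT, where 17.4% of all genes tested were called, and 2 in MSCEPO against NT, where 11.6% were. In DPSC against NT 1 member was called, beside 2.85% of all genes. All of these were higher than in NT and also passed the fold change of 2 that the study asks of a changed gene. The study listed Ccnd1, Ccnd2, Ccne2 and Cdk6 as significant with positive fold changes in the MSCEPO group, which it mainly compared with Sham. It picked them with DESeq2 on the samples of that group, so their direction there is not independent evidence. In limma against Sham, MSCEPO differed by 0.74 for Ccnd1 (adjusted p = 0.623) and -0.02 for Ccnd2 (adjusted p = 0.989). The differences were 0.26 for Ccne2 (adjusted p = 0.616) and 0.21 for Cdk6 (adjusted p = 0.865), and none was called. In MSCEPO 1, 2 and 3 the distances from the Sham mean were 0.46, 0.45 and -0.97 for Ccnd2 and 0.58, 0.55 and -0.5 for Cdk6. They were 0.98, 1.26 and -0.02 for Ccnd1 and 0.36, 0.24 and 0.19 for Ccne2. The means thus depend on MSCEPO 3, the lowest for each of these genes. The study handled outliers within DESeq2, so its test and this one are not alike. In Sham against NT none of the members was called, beside 0.888% of all genes. Against Sham none was called in MSC, MSCEPO or DPSC, beside 0%, 0.0259% and 0.0195% of all genes. With DESeq2 the study reported many genes changed in MSC and MSCEPO against Sham. Since almost no gene was called here, the lack of a call does not show that a member was unchanged against Sham. In the comparisons among the 3 cell groups 0 members and 0% of all genes were called.

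At an unadjusted p under 0.05 the counts were 2 members in Sham against NT (12.4% of all genes), 4 in MSC (30.7%), 3 in MSCEPO (27%) and 2 in DPSC (16.8%) against NT. They were 3 in MSC (13.3%), 0 in MSCEPO (8.31%) and 0 in DPSC (2.37%) against Sham. Among the cell groups they were 0 for MSC against MSCEPO (3.79%), 1 for DPSC against MSC (7.02%) and 1 for DPSC against MSCEPO (2.48%). Groups did not overlap for 3 members in Sham against NT (31.9% of all genes), 6 in MSC (44.1%), 3 in MSCEPO (31.4%) and 3 in DPSC (31.7%) against NT. Against Sham these were 5 in MSC (24.5%), 3 in MSCEPO (14.3%) and 0 in DPSC (9.82%). Among the cell groups they were 1 for MSC against MSCEPO (4.09%), 1 for DPSC against MSC (6.7%) and 2 for DPSC against MSCEPO (4.34%). With 10 members, 1 gene moves a share of the set by 10%, so no share here is read as particular to the set.

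The median difference of the 10 members from NT was 0.12 in Sham, 0.23 in MSC, 0.24 in MSCEPO and 0.12 in DPSC, where the median of all genes was 0. A moderated F-test over the 5 groups called Ccnd1 alone (F = 10.2, adjusted p = 0.0213), where 6.22% of all genes were called. Ccnd2 followed at an adjusted p of 0.0544. The F-test called Ccnd2 too without MSCEPO 3 (F = 28.4, adjusted p = 0.00126) and without DPSC 2 (adjusted p = 0.0455). The F-test call of Ccnd1 was lost when any NT library or MSC 2 was left out, with adjusted p-values from 0.0503 to 0.128.

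**Figure D3:**
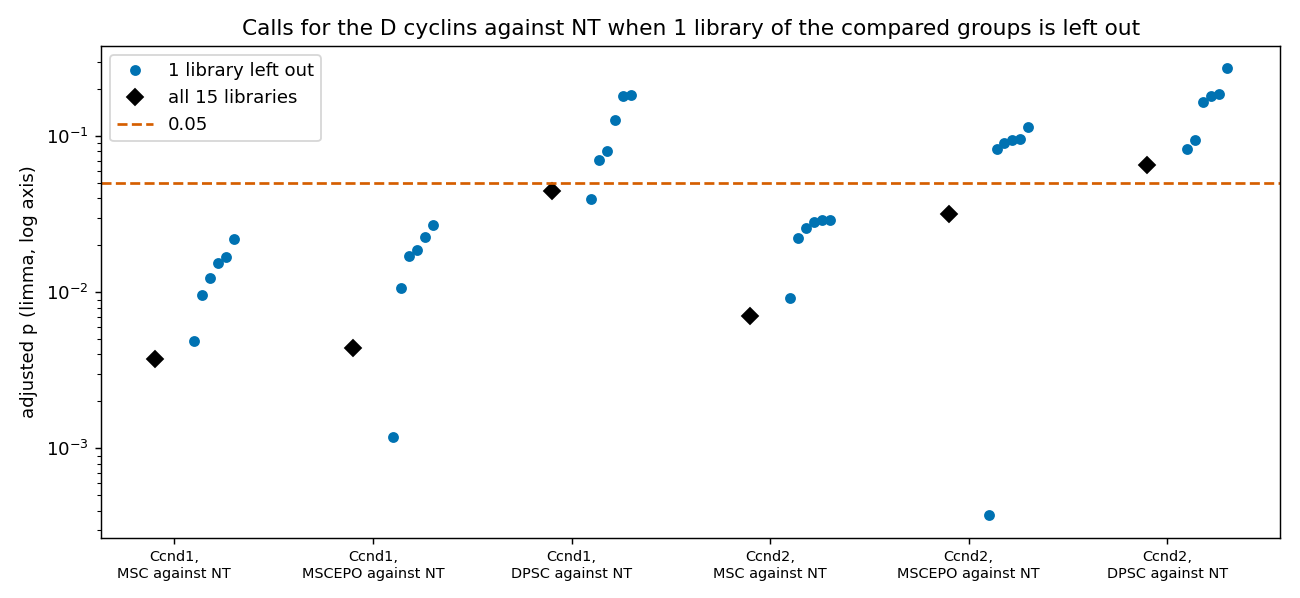
Adjusted p from limma (vertical log axis) of Ccnd1 and Ccnd2 in the 3 cell groups against NT, with all 15 libraries (diamonds) and with each of the 6 libraries of the groups compared left out in turn (circles). The dashed line is 0.05. All circles for Ccnd1 in MSC and MSCEPO and for Ccnd2 in MSC lie under the line, whereas 5 of 6 lie above it for Ccnd1 in DPSC and for Ccnd2 in MSCEPO.

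The kinds of transplanted cells could not be ranked by these genes. The MSCEPO cells differ from the MSC by lentiviral transduction, by the erythropoietin transgene with its reporter, and by sorting. Between MSC and MSCEPO, Ccnd1 differed by 0.02 (interval -0.78 to 0.81), Ccnd2 by 0.35 (interval -0.33 to 1.03) and Cdk6 by 0.12 (interval -0.51 to 0.74). The Ccnd2 difference changed sign, to -0.13, without MSCEPO 3. DPSC lay under MSC by 0.50 for Ccnd1 (interval of the difference -1.29 to 0.30) and by 0.27 for Cdk6 (interval -0.89 to 0.36). The intervals for Ccnd1 and Cdk6 between MSC and MSCEPO reach past 0.5 log2 units in both directions, so likeness of the cell kinds is not shown either.

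The genes whose level over the 15 libraries was most like that of Ccnd1 were Clu, Prelp and Cp. Clu encodes the secreted chaperone clusterin, Prelp an extracellular matrix proteoglycan and Cp the copper-binding ferroxidase ceruloplasmin. Pearson's r was 0.982, 0.98 and 0.98, and 0.946, 0.954 and 0.939 after each group's mean was subtracted. The 15 points share libraries and group differences, so these values are a description. Ccnd2 was not called by the F-test over all 15 libraries and was added after the values were seen. Its most alike genes were Fgf2, a fibroblast growth factor, Slc25a30, a mitochondrial carrier, and Osmr, the oncostatin M receptor. Their r was 0.965, 0.964 and 0.961.

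Some transcription factors known to act on G1 cyclin genes were higher in the injured retinas. Of 14 tested, 2 were called higher in Sham against NT, 7 in MSC, 4 in MSCEPO and 2 in DPSC, and none was lower. The median difference of the list from NT was 0.16, 0.60, 0.56 and 0.36 in these groups. Stat3, the cytokine-activated factor, was higher by 0.94 in Sham (SE 0.13, adjusted p = 0.00606) and by 1.19 in MSC (SE 0.13, adjusted p = 0.00039). Fosl1, an AP-1 subunit, was higher by 0.68 in Sham (adjusted p = 0.0136) and by 0.97 in MSC (adjusted p = 0.000432). Myc was higher by 1.38 in MSC (adjusted p = 0.0016) and 1.01 in MSCEPO (adjusted p = 0.00872), and stood 0.42 above NT in Sham (adjusted p = 0.444). Jun was higher by 0.85 in MSC (adjusted p = 0.00461) and 0.79 in MSCEPO (adjusted p = 0.00848).

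Downstream of the kinases, the retinoblastoma family, E2F and DP factors moved less. Of 10 tested, E2f2, an activating E2F, was called higher in MSC, by 1.20 (SE 0.30, adjusted p = 0.016), and Tfdp1, the DP partner of E2Fs, lower in MSCEPO, by -0.35 (SE 0.09, adjusted p = 0.0307). None was called in Sham or DPSC against NT. Without MSC 1, E2f2 was no longer called in MSC, where the list then had 0 higher and 1 lower. Of 5 other CDK inhibitors tested, only Cdkn2b (p15), an inhibitor of CDK4 and CDK6, was called, higher by 1.47 in MSCEPO (SE 0.43, adjusted p = 0.0438), and it stood 1.27 above NT in MSC (adjusted p = 0.0612). None of 17 genes of CDK activation and of the turnover of cyclins and inhibitors was called in any comparison.

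Genes of S phase and mitosis are expressed in cells that pass G1. They were not tested against Ccnd1 and Ccnd2, which stood 1.27 and 1.18 above NT in Sham and were not called. None of 25 tested was called in Sham against NT, where the list median was 0.04. In MSC 7 were higher, among them Top2a by 2.93 (SE 0.67, adjusted p = 0.0109) and Mki67 by 2.90 (SE 0.70, adjusted p = 0.0139), and also Mcm5 and Rrm2. In MSCEPO none was higher and 1 was lower, Tyms by -0.81 (SE 0.23, adjusted p = 0.0398), and in DPSC none was called. By library the list lay 1.33, 0.52 and 0.18 above its NT mean in MSC and 0.44, 0.34 and 0.02 in MSCEPO, highest in MSC 1. Without MSC 1 the count in MSC was 2 higher and 1 lower. With MSC 1 and MSCEPO 3 both left out, 7 were higher in MSC and 9 in MSCEPO, so these counts turned on 2 libraries.

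For p53 targets, the list that p21 belongs with, 1 of 15 tested was called higher in Sham, 3 in MSC, 3 in MSCEPO and 2 in DPSC against NT, and 2 were lower in MSC and 1 in MSCEPO. Sesn2, a stress-induced antioxidant regulator, was higher by 0.75 in Sham (SE 0.13, adjusted p = 0.0164). Phlda3, an inhibitor of Akt, was higher by 0.94 in MSC (adjusted p = 0.00365) and by 1.13 in MSCEPO (adjusted p = 0.00134). Fas, a death receptor, was higher by 1.46 in MSC (adjusted p = 0.00237), while Ccng1 differed by -1.1 in MSCEPO (adjusted p = 0.047). The list median stayed within 0.02 to 0.16 of NT.

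Levels of cell type markers moved beside the D cyclins. Rod markers lay under NT in all injured groups. In MSC 11 of 12 were lower than in NT, in MSCEPO 11, in DPSC 10 and in Sham 1. Their mean lay -0.82 to -0.63 from NT in Sham, -1.41 to -1.19 in MSC, -1.69 to -1.31 in MSCEPO and -1.47 to -0.71 in DPSC. With values corrected for library size, the loss of RNA from an abundant cell type raises the share of every other, and its part in the D cyclin levels was not tested.

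Reactive gliosis genes were higher in the injured groups. Of 12 tested, 4 were called higher in Sham, 11 in MSC, 12 in MSCEPO and 9 in DPSC. Gfap, the intermediate filament of reactive glia, was higher by 3.38 in Sham (SE 0.28, adjusted p = 0.000403) and by 4.04 in MSC (SE 0.28, adjusted p = 4.79e-05). The list lay 1.37 to 1.55 above NT in Sham, 2.22 to 2.37 in MSC, 1.44 to 2.64 in MSCEPO and 1.49 to 2.11 in DPSC. Its lowest MSCEPO library was MSCEPO 3 and its highest DPSC library was DPSC 2, as for Ccnd1 and Cdk6. Stat3 stands on this list and on that of the inducers. Of 12 Müller glia markers, with Vim shared with the gliosis list, 0 were called in Sham, 6 were higher and 1 lower in MSC, 5 were higher in MSCEPO and 2 in DPSC, among them Clu. That list lay 0.18 to 0.43 above NT in Sham and 0.27 to 0.55 in the cell groups.

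Dividing immune cells use D cyclins as well, and immune cell markers also differed between groups. Of 14 macrophage and microglia markers 0 were called in Sham, 14 were higher in MSC, 12 in MSCEPO and 3 in DPSC. The list lay 0.80 to 1.56 above NT in Sham, 1.93 to 3.55 in MSC, 1.62 to 2.39 in MSCEPO and 0.97 to 2.18 in DPSC. Of 12 T and NK cell markers 10 were higher in MSC, and of 6 B and plasma cell markers 5 were. The T and NK list stood at 2.82, 1.20 and 0.53 in the MSC libraries and at -0.11 to -0.02 in Sham, and the B and plasma cell list at 4.56, 2.51 and 1.50 against -0.11 to -0.02. In MSCEPO 0 of 12 and 0 of 6 were called higher and 1 T and NK marker was lower, and in DPSC 0 of either. Rlog values have no zero, so no marker could be called absent. Without MSC 1 the counts in MSC were 14 of 14 macrophage and microglia markers higher, 8 T and NK markers higher and 1 lower, and 3 B and plasma cell markers higher. Without MSCEPO 3 they were 13 of 14, 0 higher and 1 lower, and 1 higher in MSCEPO. The part of glia, macrophages and lymphocytes in the levels of the members was not tested.

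**Figure D4:**
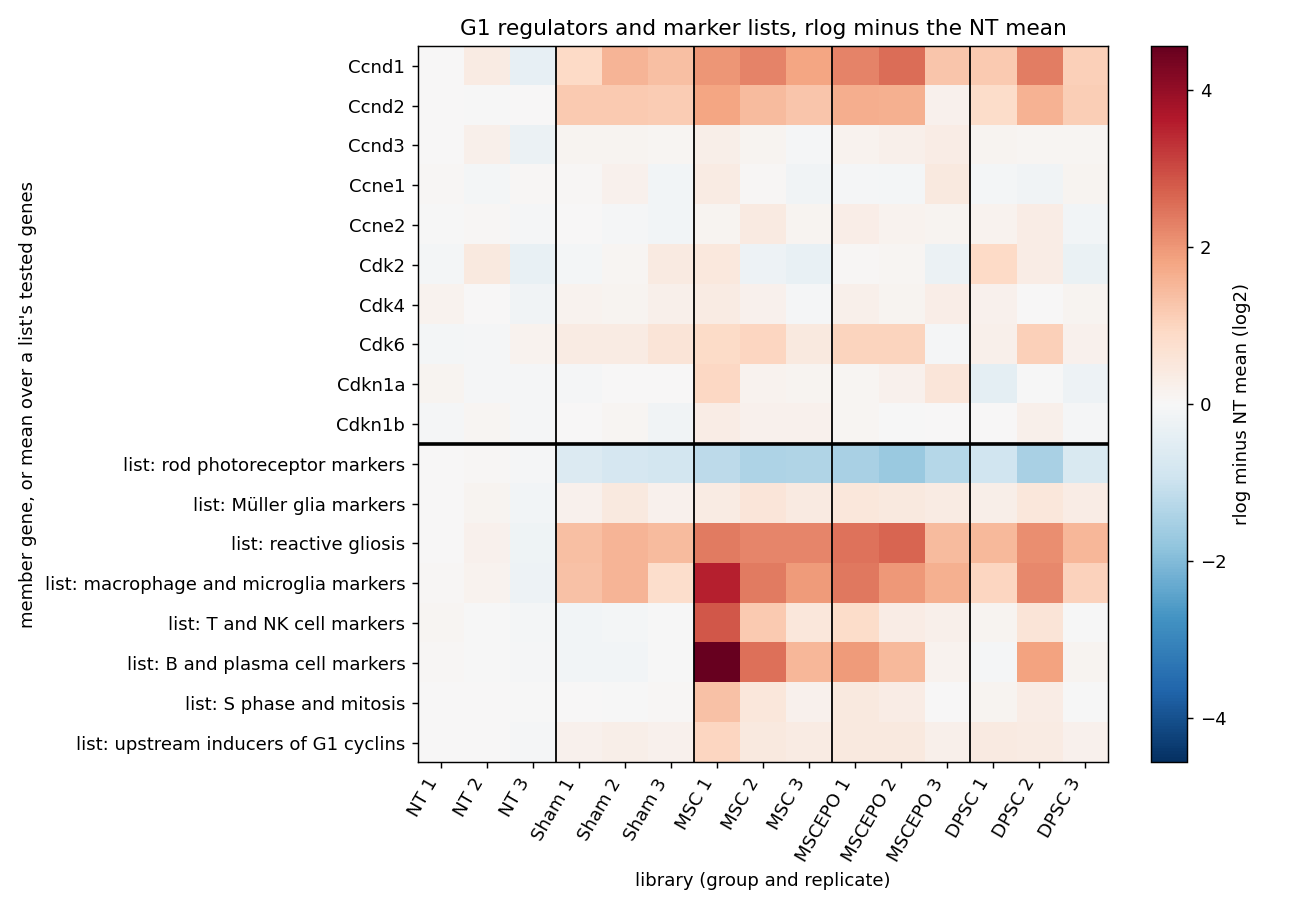
Rlog minus the NT mean (color, log2) of the 10 G1 genes and, under the thick line, the mean of 8 gene lists, in each of the 15 libraries. Within the MSCEPO group, Ccnd1, Ccnd2, Cdk6 and reactive gliosis were lowest in MSCEPO 3. Reactive gliosis there (1.44) lay within the Sham range (1.37 to 1.55). MSC 1 has the darkest immune columns, up to 4.56 for B and plasma cells.

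Markers of other cell types gave few calls, though several lists lay on 1 side of NT. Endothelial markers lay above NT for 9 of 9 in Sham, 7 in MSC, 9 in MSCEPO and 8 in DPSC, with medians of 0.47, 0.34, 0.39 and 0.31. Lens and ocular surface markers lay above NT for 9 of 10 in Sham, 10 in MSC, 8 in MSCEPO and 8 in DPSC, with medians of 1.55, 1.26, 1.26 and 3.08. The medians of pigment epithelium markers were -0.98, -1.1 and -1.09 in Sham, MSC and MSCEPO and -0.83 in DPSC, and those of stromal markers 0.44, 0.44, 0.20 and 0.51 in the 4 groups in turn. Of 9 endothelial markers 1 was higher in MSCEPO and 0 were called in the other groups against NT. Of 9 pigment epithelium markers 4 were lower in MSC, 1 was lower and 1 higher in MSCEPO, and 0 were called in Sham and DPSC. Of 12 stromal markers 1 was higher and 1 lower in MSC and 1 lower in MSCEPO. Of 10 lens and ocular surface markers 1 was lower in MSCEPO, and the list ranged from -0.91 to 4.28 over the DPSC libraries. The part of these cell types in the levels of the members was not tested.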

How the data were processed

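Messenger RNA of whole rat retinas was sequenced from 15 libraries. The authors quantified the reads with Salmon 1.1.0 against Ensembl Rnor_6.0, made gene totals with tximport and applied DESeq2's transformation. The deposited values are the authors' rlog values, in log2 units. No counts were used, so depth is unknown and no counting error is given. A table of the whole series, with 15 columns of per-sample values whose names match no label, was not used.

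The computation used R 4.3.3 with limma 3.58.1: 1 fit of group means over 15 libraries, genes with a mean rlog of at least 3.32 (log2 of 10), variances moderated with a trend on the mean, and Benjamini-Hochberg adjustment over all 15424 genes tested in each of 10 comparisons. The fit was also run on simulated data with normal noise of 1 spread per gene in every library. The real libraries differ in spread, so that run does not cover the effect of libraries such as MSCEPO 3. Where 2 identifiers share a symbol, the one with the higher mean was used.

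The members, lists and tests were chosen with earlier results of these data known. All 10 members were named. Fold change, SE and adjusted p are given for members called and, in a comparison with none called, for the member with the lowest unadjusted p, and other differences were added after the values were seen. For a member called by the F-test the 3 genes most like it were named, and of each list at most 4 genes, those lowest in adjusted p in a comparison. The lists hold other CDK inhibitors, pocket proteins with E2F and DP factors, CDK activation and turnover, inducers of G1 cyclins, p53 targets, S phase and mitosis, and markers of rods, Müller glia, gliosis, macrophages and microglia, B and plasma cells, T and NK cells, endothelium, pigment epithelium, stroma, and lens and ocular surface.

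Replicate numbers were not used to pair the samples, since correlations of same-numbered libraries ran from -0.44 to 0.65. In MSC against MSCEPO alone all 3 were over 0.1 (0.16 to 0.28), and the block changed no call there. These correlations do not exclude a pairing, which the labels do not give. With the block, the F-test of Ccnd1 gave F = 24.2 (adjusted p = 0.00386), against 10.2 without it.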

Additional observations from a re-analysis of the deposited data

Results flagged for a closer look

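For 2 genes every library of a cell group lay above the Sham mean and every library of another lay under it. For Cdkn1a the MSC libraries lay 0.97, 0.18 and 0.16 above the Sham mean and the MSCEPO libraries 0.11, 0.20 and 0.57 above it, while the DPSC libraries lay at -0.42, -0.01 and -0.21. MSC lay 0.65 and MSCEPO 0.50 above DPSC, and limma's test of these differences gave adjusted p-values of 0.587 and 0.996. For Ccnd3 the MSCEPO libraries lay 0.06, 0.13 and 0.21 above the Sham mean and the DPSC libraries at 0.00, -0.01 and -0.02, a difference of 0.14 between the groups, with an adjusted p of 0.996. None of the 3 differences passed the test.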

How the results depend on the processing

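Of 190 counts of members called under an alternative, 156 stayed within 1.5 times the count given in the report. These include counts of 0 that stayed 0 where few or no genes were called at all, which says little about stability. A count also hides which member was called. In DPSC against NT it was Ccnd1 in the main fit and Ccnd2 with the 2 groups alone. In Sham against NT, where 0 were called, 3 were called with the 2 groups alone (8.65% of all genes) and 3 with array weights (15.4%). There 1 was called with a replicate block (Ccnd1, 0.973% of all genes) and 1 without MSCEPO 3 (Ccnd2, 2.93%). With MSC 1 and MSCEPO 3 left out together, an alternative chosen after seeing the data, 2 were called (4.92% of all genes). Array weights also called 4 members in MSC (18.1% of all genes) and 1 in MSCEPO (7.16%) against Sham. They called 5 in MSC (49.4%) and 3 in DPSC (23.8%) against NT, and 5 in DPSC against MSC (11.9%). The default estimate of these weights did not converge, so a gene-by-gene estimate was used, with weights from 0.0826 for MSCEPO 3 to 5.28 for MSC 2. In MSCEPO against NT the 2 groups alone called 1 member, and leaving out 1 library gave 1 to 3. In DPSC against NT no filter and quantile normalization called 0, leaving out MSC 1 and MSCEPO 3 called 2, and leaving out 1 library gave 0 to 1 for the 6 libraries of these groups and 0 to 2 over all 15, with 2 without MSCEPO 3. In MSC against NT leaving out MSCEPO 3 called 3 (26.3% of all genes). The F-test called 2 members with the replicate block, median centring, 12 libraries without DPSC, or MSC 1 and MSCEPO 3 left out, 6 with array weights, and 0 to 2 with 1 library left out. The block changed no other call among the members. Of 501 single differences under an alternative, 459 kept direction and side of the threshold, 25 became called, 14 were lost and 3 changed sign. These 3 were Ccnd2 in MSC against MSCEPO, at -0.16 with array weights, -0.27 with MSC 1 and MSCEPO 3 left out, and -0.13 without MSCEPO 3, the lowest of a range up to 0.59 with 1 library left out. The 14 losses all fell on called differences, Ccnd1 in DPSC (8 of 15 alternatives) and Ccnd2 in MSCEPO (6 of 16) against NT. Most of the 501 belong to differences not called in the main fit, so their staying uncalled says little about stability. The lack of counts leaves the precision of the low genes unknown.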
